A study of Mus musculus with 16 samples.

Results

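The 8 genes described here, Runx1, Sox4, Dach2, Hdac4, Hdac9, Gadd45a, Ncam1 and Fgfbp1, encode regulators and surface or secreted proteins known from the response of skeletal muscle to loss of its nerve. They were found on the arrays through the RefSeq transcript named for each probe, which gave 14 probes of the 55588 used, and all 8 genes were among the 21772 genes tested, 7 of them well above background on every array and Runx1 on all but 1 array of 3 months. They were chosen with levels from these arrays known, so their levels and differences are descriptions. Members past the threshold are counted only beside the share of all genes past it, also as a description, and no p is given for them. Gastrocnemius, the large and mostly fast-fibred muscle of the calf, had been taken from female mice of the inbred strain C57Bl/6J that had received no treatment. The mice were aged 3, 15, 24 or 29 months, with 4 samples per age. Every sample was hybridised to its own array of a 1-colour platform, in which the brightness of a probe reports the amount of labelled RNA bound to it. All groups shared sex, strain and lack of treatment and differed in age alone by their labels. Whether the 4 samples of an age are different animals is not stated in the labels, so the spread between them may be technical.

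In a healthy adult fibre, electrical activity and nerve-derived signals keep many muscle genes silent outside the synapse. When the nerve is cut, activity stops, the myogenic factor Myog rises, and acetylcholine receptor genes, Ncam1, Runx1 and Gadd45a are induced. Class IIa histone deacetylases and the Dach2 corepressor carry part of this signal: in denervated mouse muscle Hdac4 rises and represses Dach2, which relieves Myog, while Hdac9, a repressor of synaptic genes in innervated fibres, falls.

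Levels are log2 intensities minus the 75th percentile of the array, so 0 is the level of the probe at that percentile, and a level is compared only with the level of the same probe on other arrays. Differences are later age minus earlier age on the log2 scale, with the standard error (SE) from one linear model over all 16 arrays, and a gene was called when its Benjamini-Hochberg adjusted p from limma was under 0.05. From 48.0% to 60.9% of spots were well above background on an array and 0 were saturated. The number of arrays limits the precision. Slide 1 carried the younger pair of ages, 3 and 15 months, and slide 2 the older pair, 24 and 29 months, with row 1 of the slide given to 15 or 24 months and row 2 to 3 or 29 months. Each slide also had its own scan. For 29 against 3 months, and likewise for 24 against 15 months, age, slide and scan cannot be told apart. For 15 against 3 months, and for 29 against 24 months, age and row of the slide cannot be told apart. The mean level of 12 muscle fibre markers, such as Acta1, Ckm and Myh4, was between 8.34 and 8.95 on every array. This is whole tissue, so fewer cells of a type and less RNA per cell cannot be told apart.

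The promoters of Runx1, Sox4 and Gadd45a are shown because in these 3 members the 4 arrays of 24 months lay wholly above the 4 of 15 months. Each is 300 bases from RefSeq on build GRCm38.p6, from 250 bases before the annotated start to 50 after it. All 3 genes lie on the minus strand and the letters run 5′ to 3′ along the gene. Capitals mark matches on either strand to the E-box (CANNTG, bound by basic helix-loop-helix factors such as Myog), the RUNX core (TGTGGT), the octamer (ATTTGCAT) and the CCAAT box (CCAAT).
Runx1 distal promoter, chr16:92826025-92826324: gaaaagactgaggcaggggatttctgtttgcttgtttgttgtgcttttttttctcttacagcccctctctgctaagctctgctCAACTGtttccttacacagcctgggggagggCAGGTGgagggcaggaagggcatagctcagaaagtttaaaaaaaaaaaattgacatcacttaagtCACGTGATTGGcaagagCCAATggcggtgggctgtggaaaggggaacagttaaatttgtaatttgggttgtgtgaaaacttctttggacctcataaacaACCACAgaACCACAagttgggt
Runx1 proximal promoter, chr16:92697280-92697579: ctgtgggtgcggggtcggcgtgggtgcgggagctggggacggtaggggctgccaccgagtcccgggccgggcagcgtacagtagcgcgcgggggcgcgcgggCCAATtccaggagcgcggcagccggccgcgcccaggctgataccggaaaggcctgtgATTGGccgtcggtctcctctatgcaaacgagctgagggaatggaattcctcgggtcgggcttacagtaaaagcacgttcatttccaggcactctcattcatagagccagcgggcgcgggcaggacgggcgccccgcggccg
Sox4 promoter, chr13:28953650-28953949: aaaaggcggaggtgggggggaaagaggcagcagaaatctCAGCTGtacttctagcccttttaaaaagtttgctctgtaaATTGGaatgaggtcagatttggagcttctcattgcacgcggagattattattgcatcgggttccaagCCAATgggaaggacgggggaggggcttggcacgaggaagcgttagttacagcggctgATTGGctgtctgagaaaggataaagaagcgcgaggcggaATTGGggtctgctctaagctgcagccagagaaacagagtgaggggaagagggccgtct
Gadd45a promoter, chr6:67037358-67037657: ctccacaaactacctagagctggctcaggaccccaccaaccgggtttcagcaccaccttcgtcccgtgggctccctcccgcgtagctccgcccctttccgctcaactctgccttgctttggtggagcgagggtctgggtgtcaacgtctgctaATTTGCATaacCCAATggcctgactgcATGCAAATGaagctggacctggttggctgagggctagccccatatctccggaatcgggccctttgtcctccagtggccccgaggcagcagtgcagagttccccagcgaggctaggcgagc

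The distal Runx1 promoter held 3 E-boxes, at -167, -136 and -71 bases from the start, and 2 RUNX cores, both as ACCACA, 28 and 36 bases past it. It also held 2 CCAAT boxes, at -65 and -54. The proximal Runx1 promoter held 2 CCAAT boxes as well and none of the other 3 motifs. The Sox4 promoter held 4 CCAAT boxes and 1 E-box. The Gadd45a promoter held 2 octamers, on opposite strands at -97 and -70, on either side of a CCAAT box at -86, and its single E-box overlapped the second octamer. An octamer and CCAAT boxes are known elements of the human GADD45A promoter. Among all 32851 promoters of the same length, 72.3% held an E-box, 16.8% a RUNX core, 1.74% an octamer and 37.4% a CCAAT box. The SOX core (AACAAT), held by 10.7% of promoters, was found in none of the 4 promoters shown. A match is a run of letters and no evidence of binding. Promoters were held for 7 of the 8 members, Ncam1 having no entry in the table used.

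Runx1 encodes a runt-domain transcription factor that is low in innervated adult muscle and limits the disorganisation of fibres in denervated mouse muscle. On the probe that represents it, its log2 level was -3.06, -3.59, -2.77 and -2.98 at 3 months, -3.31, -3.13, -2.33 and -2.45 at 15 months, 0.30, -0.55, -1.08 and -0.95 at 24 months and -0.43, 0.27, -1.05 and 0.38 at 29 months. Every array of 24 or 29 months was above every array of 3 or 15 months, while 3 overlapped 15 months and 24 overlapped 29 months. Runx1 averaged -0.21 ± 0.67 at 29 months and -3.10 ± 0.35 at 3 months (SD, n = 4 each), a difference of 2.89 (SE 0.35) or 7.42-fold, and of 1.65 with normexp background correction. The step at 24 against 15 months was 2.24 (SE 0.35) or 4.71-fold (1.22 with normexp), beside 0.30 at 15 against 3 months and 0.36 at 29 against 24 months. All 4 arrays of each later age, and 3 of the 4 at 3 months, were well above background for this probe.

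A second Runx1 probe, placed on another transcript, had levels of -4.51, -3.58, -3.24 and -4.66 at 3 months, -3.92, -2.96, -2.16 and -2.26 at 15 months, 0.48, -1.09, -0.95 and -0.82 at 24 months and -1.06, -0.01, -1.87 and 0.15 at 29 months. It was well above background on no array of 3 months, 2 of 15 months and all 4 of each later age. This probe passed the filter through 24 and 29 months alone, so its higher level there is no separate support. For a fold, each 3-month array was entered at the larger of its own signal and the weakest signal the scanner software had passed there. The level at 29 months was then 6.80-fold higher than at 3 months. The steps of this probe were 1.18 at 15 against 3 months, 2.23 at 24 against 15 months and -0.10 at 29 against 24 months (SE 0.51 each). The step at 24 against 15 months was the largest on both probes, while the first step was larger on this probe and the last had the other sign. Both had 24-month replicate 1 as the highest array of that age and 29-month replicate 3 as the lowest of its age.

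Sox4, a SoxC transcription factor of progenitor and differentiating cells, followed another course. Its log2 level was -0.87, -1.06, -1.13 and -1.09 at 3 months, -2.11, -1.91, -1.95 and -1.86 at 15 months, -0.90, -0.99, -0.64 and -0.40 at 24 months and -0.62, -1.03, -1.18 and -0.59 at 29 months. All 4 arrays of 15 months lay below all 12 others, and the arrays of 3, 24 and 29 months overlapped. Sox4 averaged -1.96 ± 0.11 at 15 months and -1.04 ± 0.12 at 3 months (SD, n = 4 each), a difference of -0.92 (SE 0.15), which is 1.89-fold lower at 15 months (-0.49 with normexp). At 24 against 15 months it was higher by 1.22 (SE 0.15) or 2.34-fold (0.69 with normexp), and 29 against 3 months differed by 0.18 (SE 0.15). The other Sox4 probe was well above background on 1, 1, 2 and 0 arrays of 3, 15, 24 and 29 months, which gives it no usable order.

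**Figure D1:**
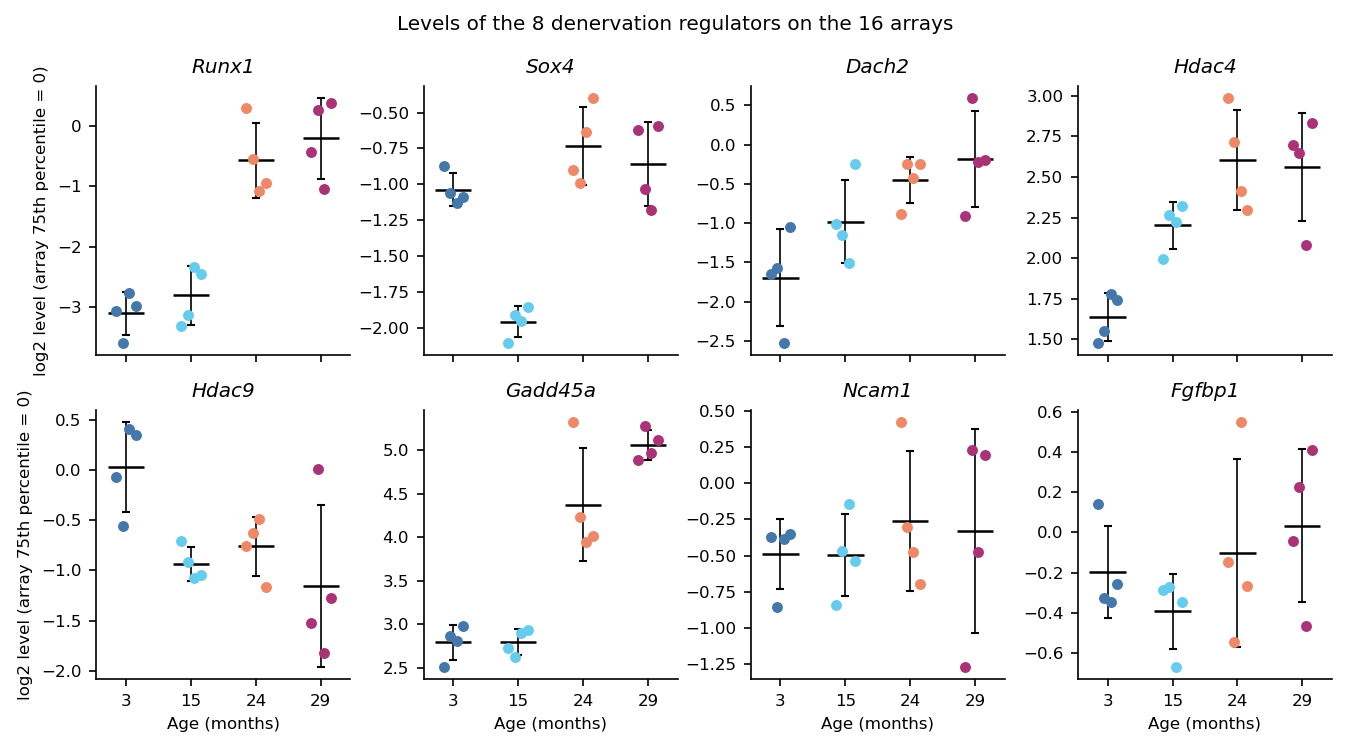
Log2 level (array 75th percentile = 0) of each member by age in months, with 1 point per array, a bar at the mean of the 4 arrays and whiskers of 1 SD. Runx1 and Gadd45a lie higher on all arrays of 24 and 29 months than on those of 3 and 15 months, Sox4 is lowest on the 4 arrays of 15 months, and Hdac9 averages -1.15 at 29 months and 0.03 at 3 months.

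Dach2 encodes a corepressor of the dachshund family that restrains Myog in mouse muscle. Its log2 level on the representing probe was -1.64, -1.57, -2.53 and -1.05 at 3 months, -1.02, -1.15, -1.5 and -0.25 at 15 months, -0.88, -0.25, -0.43 and -0.24 at 24 months and -0.91, 0.59, -0.22 and -0.19 at 29 months. The mean was higher at each later age, with overlap between every pair of neighbouring ages, while the arrays of 29 and of 3 months did not overlap. Dach2 averaged -0.18 ± 0.61 at 29 months and -1.7 ± 0.62 at 3 months (SD, n = 4 each), a difference of 1.51 (SE 0.34) or 2.86-fold. The 3 steps were 0.72, 0.53 and 0.27 (SE 0.34 each). Replicate 3 of 3 months was the lowest array of all, and without it the difference at 29 against 3 months was 1.24.

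The other 2 Dach2 probes, both on a second transcript, differed by 1.03 (SE 0.30) and 1.22 (SE 0.29) at 29 against 3 months, so all 3 probes were higher at 29 months. At 29 against 24 months they split in sign, at 0.27, -0.12 and 0.06. The dimmer of them was well above background on no array of 3 months, 1 of 15 months and all 4 of 24 and of 29 months. It passed the filter through 24 and 29 months alone, so its higher level there is no separate support. With 3-month arrays entered as for the second Runx1 probe, its level was 1.54-fold higher at 29 than at 3 months.

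Hdac4 is a class IIa histone deacetylase that shuttles between cytoplasm and nucleus with muscle activity. Its log2 level was 1.48, 1.55, 1.78 and 1.74 at 3 months, 2.0, 2.27, 2.22 and 2.32 at 15 months, 2.99, 2.72, 2.42 and 2.30 at 24 months and 2.69, 2.65, 2.08 and 2.83 at 29 months. The 4 arrays of 3 months lay below all 12 others, 15 and 24 months overlapped at 1 array each, and 24 and 29 months overlapped widely. Hdac4 averaged 2.56 ± 0.33 at 29 months and 1.64 ± 0.15 at 3 months (SD, n = 4 each), a difference of 0.93 (SE 0.17) or 1.90-fold. The steps were 0.56 at 15 against 3 months, 0.40 at 24 against 15 months and -0.04 at 29 against 24 months (SE 0.17 each).

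Hdac9 is the other class IIa deacetylase of the set, whose short form lacks the catalytic domain and represses Mef2-dependent genes. Its log2 level was -0.07, -0.56, 0.41 and 0.34 at 3 months, -0.71, -0.92, -1.08 and -1.04 at 15 months, -0.76, -0.63, -0.49 and -1.17 at 24 months and -1.53, 0.01, -1.82 and -1.27 at 29 months. The arrays of 15 months lay wholly below those of 3 months, whereas 29 months overlapped 3 months through its replicate 2. Hdac9 averaged -1.15 ± 0.81 at 29 months and 0.03 ± 0.45 at 3 months (SD, n = 4 each), a difference of -1.19 (SE 0.32), which is 2.28-fold lower at 29 months. Most of it was present by 15 months, at -0.97 against 3 months (SE 0.32), and the later steps were 0.18 and -0.39. Without 29-month replicate 2 the difference at 29 against 3 months was -1.57, and without 29-month replicate 3 it was -0.96.

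Gadd45a encodes a small nuclear stress protein that is induced by p53 and, in mouse muscle, by Atf4 and denervation. Its log2 level was 2.51, 2.87, 2.81 and 2.98 at 3 months, 2.73, 2.63, 2.90 and 2.93 at 15 months, 5.32, 4.23, 3.94 and 4.01 at 24 months and 4.88, 5.27, 4.97 and 5.12 at 29 months. All 8 arrays of 24 and 29 months lay above all 8 of 3 and 15 months. At 24 months replicate 1 was above all 4 arrays of 29 months, and the other 3 arrays lay below every array of 29 months. Gadd45a averaged 5.06 ± 0.17 at 29 months and 2.79 ± 0.20 at 3 months (SD, n = 4 each), a difference of 2.27 (SE 0.24) or 4.82-fold. It differed by 0.01 (SE 0.24) at 15 against 3 months, was higher by 1.58 or 2.98-fold at 24 against 15 months, and differed by 0.69 at 29 against 24 months, or by 1.0 without 24-month replicate 1.

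Ncam1 encodes the neural cell adhesion molecule, which is confined to the synapse of innervated fibres and spreads over the surface after denervation, and which Schwann cells also carry. Its log2 level on the representing probe was -0.37, -0.85, -0.39 and -0.35 at 3 months, -0.84, -0.47, -0.15 and -0.54 at 15 months, 0.43, -0.30, -0.47 and -0.70 at 24 months and -1.27, 0.23, -0.48 and 0.20 at 29 months. All ages overlapped, and the spread grew to an SD of 0.71 at 29 months, beside 0.24 at 3 months. The difference at 29 against 3 months was 0.16 (SE 0.31), and the 3 probes of the gene disagreed in sign. A probe on another transcript was lower by -0.59 (SE 0.20), and a second probe on the first transcript differed by 0.56 (SE 0.34). Without 29-month replicate 1 the representing probe differed by 0.47, and without 29-month replicate 2 by -0.03, so single arrays of 29 months set its sign.

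Fgfbp1 encodes a secreted carrier that releases fibroblast growth factors from the matrix and helps to maintain the neuromuscular junction in mice. Its log2 level was 0.14, -0.33, -0.34 and -0.26 at 3 months, -0.28, -0.27, -0.67 and -0.35 at 15 months, -0.15, -0.55, 0.55 and -0.27 at 24 months and -0.04, 0.23, -0.46 and 0.41 at 29 months. All ages overlapped. The difference at 29 against 3 months was 0.23 (SE 0.22), and the 3 steps lay between -0.20 and 0.29, with the same SE.

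**Figure D2:**
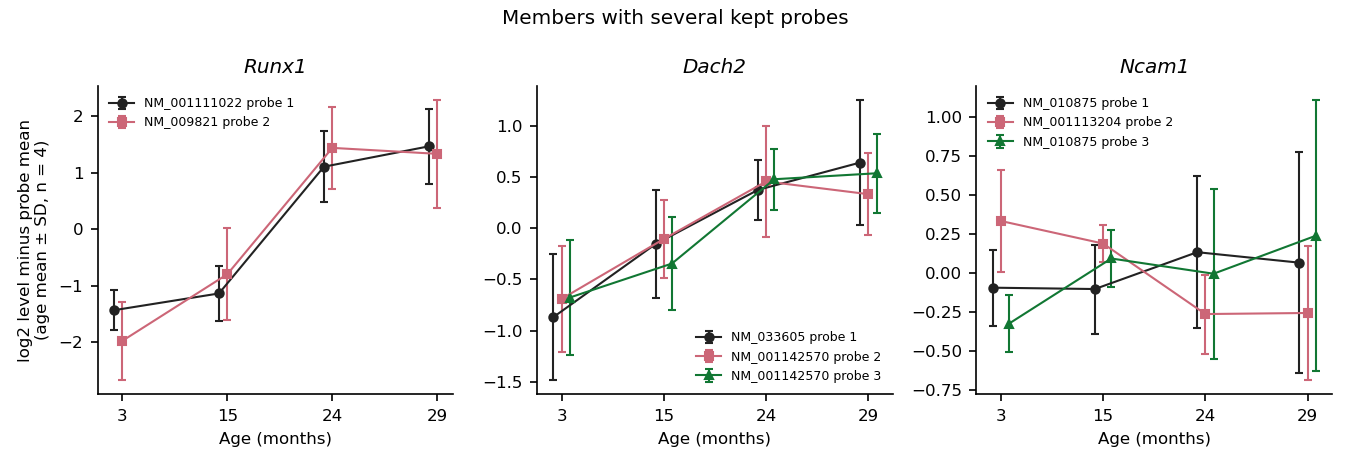
Mean and SD (n = 4 arrays) by age in months of each kept probe of Runx1, Dach2 and Ncam1, as log2 level minus the mean of that probe over the 16 arrays. Both Runx1 probes and all 3 Dach2 probes are higher at 29 than at 3 months, though the Runx1 probes part at 15 against 3 months (0.30 and 1.18), whereas 1 of the 3 Ncam1 probes differs by -0.59 at 29 against 3 months. The dimmer Runx1 probe and the dimmest Dach2 probe were kept through 24 and 29 months alone.

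At 29 against 3 months 5 of the 8 members were called, Runx1, Dach2, Hdac4 and Gadd45a higher and Hdac9 lower, beside 14.6% of all genes, 6.99% higher and 7.66% lower. The median difference of the 8 members was 0.58, beside -0.04 over all genes. The arrays of both ages did not overlap for Runx1, Dach2, Hdac4 and Gadd45a, all higher, beside 19.7% of all genes in either direction and 8.74% higher. Since the members were chosen with these values known, nothing is read from these shares. The call of Hdac9 was lost without any one of 3-month replicates 3 and 4 and 29-month replicates 1 and 3, in a fit of those 2 ages alone, with array weights and without the 4 arrays of lowest weight.

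Single steps gave fewer calls. At 15 against 3 months Sox4 was the only member called, lower, beside 0.969% of all genes called and 0.28% called lower, and the arrays did not overlap for Sox4 and Hdac9, lower, and Hdac4, higher, beside 12.1% of all genes, 6.35% lower and 5.72% higher. At 24 against 15 months Runx1, Sox4 and Gadd45a were called, all higher, beside 0.0965% of all genes called and 0.0689% called higher, and the same 3 did not overlap, beside 9.99% of all genes in either direction and 4.21% higher. The median difference of the 8 members was 0.47, beside -0.02 over all genes, and the sign for Ncam1 depended on the probe, with 0.24 on the representing probe and -0.45 and -0.10 on the others. The call of Sox4 held without any one array, those of both Runx1 and Gadd45a were lost without 15-month replicate 1 or 2, in a fit of those 2 ages alone and without the 4 arrays of lowest weight, and that of Runx1 also without 24-month replicate 1 or 2, with the mean over probes and with the replicate block. Scaling by the median ended the call of Gadd45a. At 29 against 24 months limma called 0 members, beside 1.92% of all genes, and none stood apart, beside 7.05%. Without 24-month replicate 1 Gadd45a was called there.

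**Figure D3:**
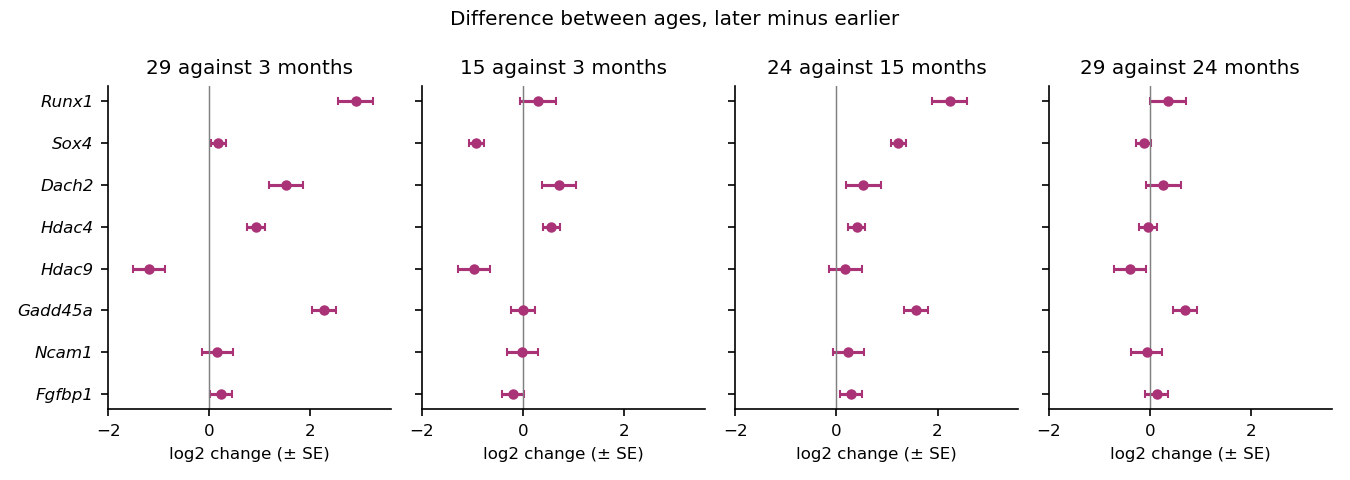
Log2 difference between ages (later minus earlier, points) with its SE (bars) for each member in 4 comparisons of ages. The Runx1, Gadd45a and Sox4 differences at 24 against 15 months are 2.24, 1.58 and 1.22, whereas Hdac9 and Sox4 are negative at 15 against 3 months, at -0.97 and -0.92.

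Single arrays were the highest or lowest of their age for several members at once, at the younger ages as well as the older. Replicate 3 of 29 months was the lowest array of its age for Runx1, Sox4, Hdac4, Hdac9 and Fgfbp1, and replicate 1 was the lowest for Dach2, Gadd45a and Ncam1, while replicates 2 and 4 held the highest place for 4 members each. Replicate 1 of 24 months was the highest of its age for Runx1, Hdac4, Gadd45a and Ncam1, and the lowest for Dach2. At 15 months replicate 4 was the highest for Sox4, Dach2, Hdac4 and Gadd45a, and replicate 1 the lowest for Runx1, Sox4, Hdac4 and Ncam1. Without 29-month replicates 1 and 3 and 24-month replicates 2 and 4, which have the 4 lowest array weights in limma, the difference at 29 against 3 months was 3.42 for Runx1, 1.90 for Dach2, 1.1 for Hdac4, 2.40 for Gadd45a and -0.67 for Hdac9.

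**Figure D4:**
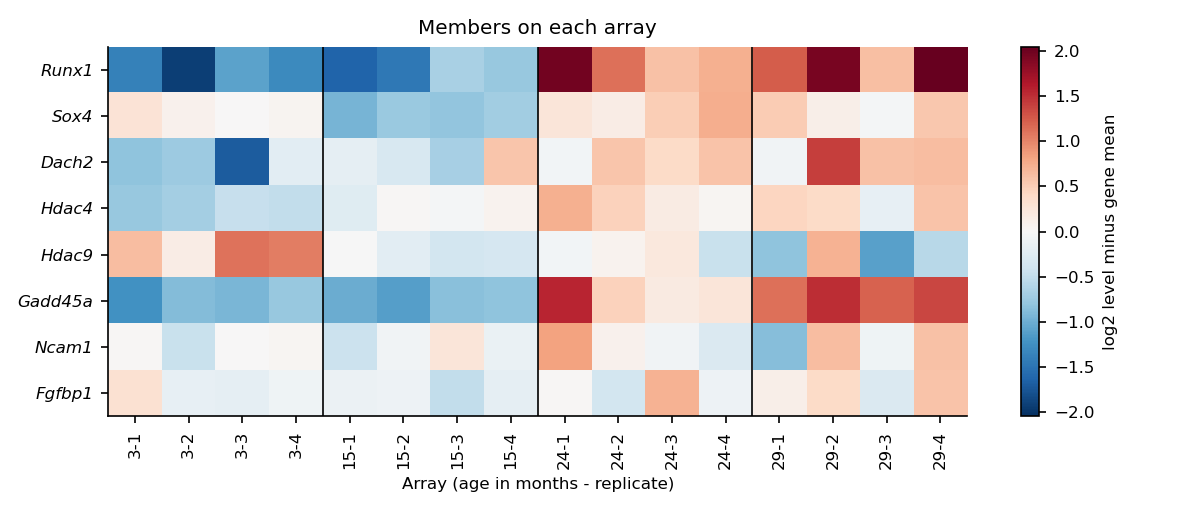
Log2 level of each member on each of the 16 arrays minus the mean of the gene over them (colour scale), with arrays ordered by age in months and replicate. Runx1 and Gadd45a are above their means on all 8 arrays of 24 and 29 months, and Sox4 is below its mean on the 4 arrays of 15 months.

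Markers of other cells moved on some of the same arrays. The mean level of 8 measured T and NK cell markers of 12 was 2.32 on 29-month replicate 1 and 0.11 to 0.24 on replicates 2, 3 and 4, against 0.05 to 0.30 at 3 months. The mean of 5 measured B and plasma cell markers of 8 was likewise highest on that array, at 1.09, and -1.72 to -1.09 on replicates 2, 3 and 4. Runx1, which lymphocytes also express, was -0.43 on that array, inside the range of the other 3, and its difference at 29 against 3 months was 2.97 without it. The mean of 10 Schwann cell and nerve markers of 12 was -1.20 to 0.62 at 29 months and -0.24 to 1.54 at 3 months, and the neurofilament gene Nefl was well above background on no array. Fibroblast markers, all 8 measured, averaged 1.15 to 3.29 at 29 months and 3.28 to 4.01 at 3 months. Of these 4 were called lower, beside 7.66% of all genes at 29 against 3 months. Of 8 endothelial markers 3 were called lower, with means of 0.82 to 1.45 at 29 months and 1.49 to 1.75 at 3 months. At 24 against 15 months, where Runx1, Sox4 and Gadd45a were higher, the fibroblast mean was wholly lower, at 0.81 to 2.91 against 2.93 to 3.33. The T and NK cell mean was wholly higher at that step, at 0.13 to 0.75 against -0.12 to -0.04. At 15 against 3 months, where Sox4 was lower, the T and NK cell mean was wholly lower, at -0.12 to -0.04 against 0.05 to 0.30. The mean of 6 measured satellite cell markers of 7 was -1.42 to -1.06 against -1.05 to -0.68, so the ages nearly touched. At 24 against 15 months, where Sox4 was higher, the satellite cell mean was -2.04 to -1.36 against -1.42 to -1.06. Of these markers Calcr was well above background on 4, 0, 0 and 1 arrays of 3, 15, 24 and 29 months. At 29 against 3 months 0 of the 8 T and NK cell markers were called. The part of these cells in the levels of Runx1, Sox4, Ncam1, Hdac9 and the other members was not tested.

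The genes around the members were read from 4 lists, 72 genes in all, of which 65 were measured. At 29 against 3 months 12 of the 65 rose and 11 fell, beside 6.99% of all genes called higher and 7.66% called lower. The same shares of all genes stand beside the count of each list. The lists were chosen with earlier results of these data known, so nothing is read from the shares. With scaling by the median 9 of the 65 rose and 3 fell. The median difference was -0.06, beside -0.04 over all genes. The median of the synaptic list stayed positive and that of the deacetylase list negative under the 4 other ways of scaling, while those of the other 2 lists changed sign under at least 1 of them. Among 16 synaptic and denervation genes 6 rose, 3 fell and 7 were not called, with a median of 0.07. Myog, the myogenic factor that Dach2 restrains, was higher by 1.64 (SE 0.27, limma with Benjamini-Hochberg adjusted p = 0.00123), and Musk, the receptor kinase of the synapse, by 1.61 (adjusted p = 0.000602). Dach2 was higher as well, whereas in the denervation response described above it is repressed, and the reason was not tested. Myf6, a myogenic factor of adult fibres, was higher by 1.34 (adjusted p = 0.000253), and the receptor subunit Chrnb1 by 0.69 (adjusted p = 0.00994). Chrna1 and Chrng were the other 2 that rose. Colq, the collagen tail that anchors acetylcholinesterase, fell by 0.53 on the log2 scale (adjusted p = 0.00894), and Ache and Myod1 also fell. The call of Chrnb1 and that of Colq were lost under scaling by the median. That of Colq was also lost with the mean over probes, at 1.5-fold or more and without the 4 arrays of lowest weight.

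Among 24 histone deacetylases and their partners 2 rose, 5 fell and 17 were not called, with a median of -0.16. Sik1, a kinase that phosphorylates class IIa deacetylases, rose by 1.75 (SE 0.24, limma with Benjamini-Hochberg adjusted p = 0.00035). The calmodulin-dependent kinases that act on the same enzymes split: Camk2b was higher by 0.55 (adjusted p = 0.000987), whereas Camk2a was lower, at -0.79 (adjusted p = 0.00923), as was Camk2g, at -0.47 (adjusted p = 0.00895). Dach1, the relative of Dach2, differed by -1.07 (SE 0.26, limma with Benjamini-Hochberg adjusted p = 0.0128), opposite in sign to the 3 probes of Dach2. Hdac2 and Hdac10 fell as well, and the class IIa gene Hdac5 differed by 0.10 (SE 0.11, limma adjusted p = 0.574). The call of Camk2g was lost under scaling by the median, at 1.5-fold or more and without the 4 arrays of lowest weight. That of Camk2b was lost at 1.5-fold or more.

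Of 17 family members and partners of Runx1, Gadd45a and Sox4, 13 were measured, and 2 rose, 1 fell and 10 were not called, with a median of 0.04. Cdkn1a, the p21 cell cycle inhibitor and a partner of Gadd45 proteins, rose by 2.14 (SE 0.31, limma with Benjamini-Hochberg adjusted p = 0.000469). Gadd45g rose by 1.24 (adjusted p = 0.0297), while Gadd45b differed by 0.07 (limma adjusted p = 0.834). Map3k4, the kinase that Gadd45 proteins activate, was lower, at -0.34 (limma adjusted p = 0.0365). The call of Gadd45g was lost without any one of 3-month replicates 1 and 2 and 29-month replicates 1 and 3, with a highest adjusted p of 0.0902. It was also lost with no filter, in a fit of those 2 ages alone, with the replicate block, with array weights and without the 4 arrays of lowest weight. The call of Map3k4 was lost without any one of 3-month replicates 1, 2 and 4 and 29-month replicates 1 and 2, with a highest adjusted p of 0.0908. It was also lost under scaling by the median, with no filter, in a fit of those 2 ages alone, with the replicate block, at 1.5-fold or more and without the 4 arrays of lowest weight. Cbfb, the shared partner subunit of Runx proteins, differed by -0.22 (limma adjusted p = 0.359) and Runx3 by 0.06 (limma adjusted p = 0.86).

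Of 15 partners of Ncam1 and of the fibroblast growth factors that Fgfbp1 carries, 12 were measured, and 2 rose, 2 fell and 8 were not called, with a median of -0.01. Gdnf, a neurotrophic factor that signals through Ncam1 among other receptors, rose by 1.86 (SE 0.41, limma with Benjamini-Hochberg adjusted p = 0.00802) and was well above background on 4 of 4 arrays of 29 months and 3 of 4 of 3 months. Fgf1 rose by 0.96 (adjusted p = 0.018), a call lost without 3-month replicate 2 or 3 or 29-month replicate 2, with a highest adjusted p of 0.0583, and under scaling by the median, with the mean over probes and in a fit of those 2 ages alone. Hspg2, the basement membrane proteoglycan perlecan, was lower, at -0.69 (limma adjusted p = 0.0102), a call lost under scaling by the median, in a fit of those 2 ages alone and without the 4 arrays of lowest weight. The receptor gene Fgfr4 was lower, at -0.72 (limma adjusted p = 0.0494), a call lost without any one of 13 of the 16 arrays and under quantile normalization, scaling by the median, the deposited values, no filter, the mean over probes and the replicate block. The sialyltransferases St8sia2 and St8sia4, which add polysialic acid to Ncam1, differed by -0.06 and 0.03 and were not called.

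**Figure D5:**
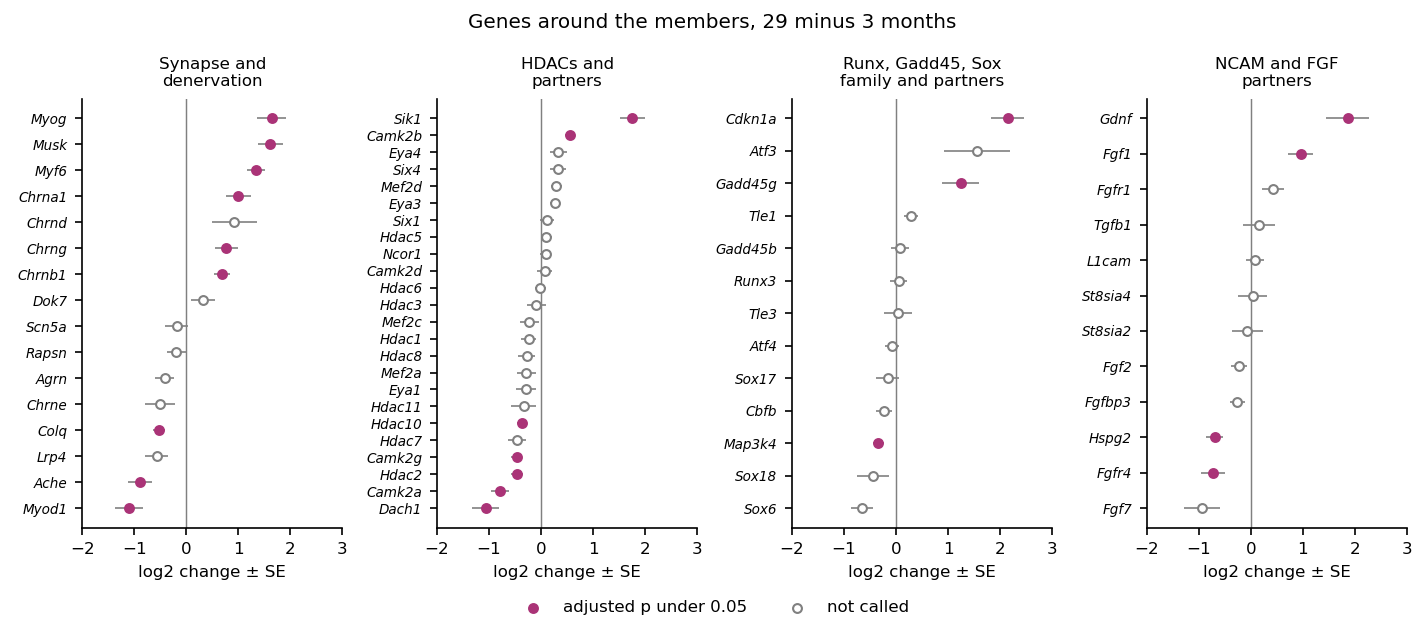
Log2 difference at 29 against 3 months with its SE for the 65 measured genes of 4 lists, 1 panel per list, with filled points for genes called and open points for the others. Cdkn1a, Gdnf, Sik1, Myog and Musk have the highest positive differences among called genes, from 1.61 to 2.14, and Myod1 and Dach1 the lowest, at -1.1 and -1.07.

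At the single steps 1 of the 65 genes was called at 15 against 3 months, beside 0.969% of all genes. It was Camk2b, higher by 0.65 (limma with Benjamini-Hochberg adjusted p = 0.00265), a call lost under scaling by the median. At 24 against 15 months limma called 0 of the 65, beside 0.0965% of all genes. At 29 against 24 months it called 2 of the 65, beside 1.92% of all genes. These were Myf6, higher by 0.75, and Fgf2, lower, at -0.63 (limma adjusted p = 0.0453 each). Both calls at 29 against 24 months were lost without any one of 14 of the 16 arrays, and the Fgf2 probe was well above background on 1 of 4 arrays of 29 months and 4 of 4 of 24 months.

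Genes whose course over the 16 arrays lay nearest to that of a member were found by the mean absolute difference of log2 levels, each gene centred on its own mean, among 12861 genes with an official symbol. This is a description over arrays that share age, slide and position. Gdf5, a bone morphogenetic protein ligand, lay nearest to Runx1 at 0.31, where the median gene lay at 1.31, and Cyp4f14 next at 0.42. For Gadd45a they were Frrs1 at 0.28 and Cdkn1a at 0.29 (median gene 0.99), and the steps of Cdkn1a were 0.00, 1.26 and 0.88, beside 0.01, 1.58 and 0.69 for Gadd45a. Tspan32 and Chpf2 lay nearest to Sox4, at 0.25 and 0.28 (median gene 0.49), and Chpf2 differed by -0.17 at 15 against 3 months, beside -0.92 for Sox4. Prelid2 and Tnnt1, the slow skeletal troponin T, lay nearest to Dach2, both at 0.27 (median gene 0.65). Hdac4 had Tmem181a at 0.13 and Ppfibp1 at 0.17 (median gene 0.44), and Hdac9 had Cxxc5 at 0.25 and Ky at 0.26 (median gene 0.52), with Ky, a gene of muscle maintenance, lower at 29 against 3 months by -1.60. The nearest genes to Ncam1, Fam234a and Mdm2 at 0.19 each, and to Fgfbp1, Zfp429 and Xxylt1 at 0.17 each, were genes of small differences (median gene 0.36 and 0.34). Among the members themselves the smallest differences were Hdac4 with Ncam1 at 0.35 and Sox4 with Fgfbp1 at 0.36. The first lies near the median gene for Ncam1 (0.36) and the second beyond that for Fgfbp1 (0.34), so no likeness is read from them. Runx1 and Gadd45a lay 0.42 apart, beside median genes at 1.31 and 0.99, and Runx1 and Hdac9 1.53 apart.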

How the data were processed

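Total RNA of 16 gastrocnemius samples was hybridised in 1 colour (Cy3). Spot intensity was written by Feature Extraction 10.7.1.1, per the file headers, with background subtracted and no scaling between arrays. A deposited table of log2 values matched the scanner files by feature number (r 0.985 to 0.993 across probes) and not by probe name (r -0.00505 to 0.0182); it has 55821 values per array and served as an alternative only, without Hdac4, whose spot lies beyond them. No source used here gives how the authors scaled it.

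From each log2 signal the array's 75th percentile was subtracted. Control spots and outlier flags were left out (93 probes dropped), and 26534 probes matched 1 gene in the RefSeq table of GRCm38.p6, used for names because the headers name another build. Probes marked well above background on every array of 1 or more ages were kept (28427), and the brightest kept probe on average stood for its gene (4708 genes had several). Linear models with limma 3.58.1 in R 4.3.3 were fitted to the 4 age means over 16 arrays, with two-sided eBayes tests and Benjamini-Hochberg adjustment over 21772 genes. The fitting code was tested on simulated data. Figures were drawn with matplotlib 3.10.9.

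The members, the gene lists and the alternatives were chosen with earlier results of these data known. Named genes were all 8 members, up to 5 genes of smallest p per list among those called at 29 against 3 months, any gene of smallest p in its list that was called at a step, and for each member the 2 nearest genes. Others, such as Chrna1, Hdac5, Gadd45b, Runx3, Cbfb and St8sia2, were named after their values were seen. P-values set a difference of age means against the spread between samples, which may be technical.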

Additional observations from a re-analysis of the deposited data

Results flagged for a closer look

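In 4 of 104 groups of 4 arrays, 1 array lay far from the other 3 by Dixon's test of the gap over the range, where chance alone flags about 1 in 20 groups. Ncam1 was -0.85 on replicate 2 of 3 months, and -0.39 to -0.35 on the other 3 arrays. Myf6 was 5.81 on replicate 1 of 24 months, and 4.89 to 5.01 on the others. Sik1 was 1.29 on replicate 1 of 24 months, and 0.54 to 0.58 on the others. Gadd45g was 5.32 on replicate 1 of 15 months, and 5.87 to 5.98 on the others. Replicate 1 of 24 months was also the highest array of its age for Runx1, Hdac4, Gadd45a and Ncam1, with gaps that did not pass this test.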

How the results depend on the processing

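The differences of the 8 members stayed within the replicate spread of the reported value in 878 recomputations. Many of these were fixed in advance. A difference cannot change on leaving out an array of another age, or with 2 ages alone, the replicate block or trend and robust eBayes. The causes of the 10 larger moves were not tested. Under normexp they were 1.65 for Runx1 at 29 against 3 months, 1.22 for Runx1 and 0.69 for Sox4 at 24 against 15 months, and -0.49 for Sox4 at 15 against 3 months. The deposited table, which reaches Ncam1 through another probe, gave -0.56 at 29 against 3 months, and other moves were in Ncam1, Dach2 and Hdac9. Scaling by the median moved the median difference of all genes to -0.15 at 24 against 15 months (-0.02 reported) and to 0.10 at 29 against 24 months (-0.03 reported).

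The count of all genes called at 29 against 3 months (3189 reported) was 1536 with scaling by the median, 1982 in a fit of the 2 ages alone and 1950 at 1.5-fold or more, and 2184 to 3543 without any one array. At 15 against 3 months (211) it was 88 with the median, 106 without a filter, 717 in a fit of the 2 ages, 1112 with array weights and 801 without the 4 arrays of lowest weight, and 85 to 268 without any one array. At 24 against 15 months (21) it was 10 with a filter on all arrays, 13 in a fit of the 2 ages, 32 with the replicate block, 139 with weights and 9 without the 4 arrays, and 2 to 88 without any one array. At 29 against 24 months (417) it was 249 with the median, 672 with normexp, 1097 with the deposited values, 153 without a filter, 9 in a fit of the 2 ages, 258 with the block, 229 with weights and 52 without the 4 arrays, and 153 to 562 without any one array. Genes higher made up 71.4% of calls at 24 against 15 months, beside 55.6% with the median, 45.2% with normexp and 46.4% with the deposited values, 76.7% at 29 against 24 months, beside 90.8% with the median and 60.4% with the deposited values, and 71.1% at 15 against 3 months, beside 58.6% with normexp and 59.6% with the deposited values.

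The members called at 29 against 3 months were 4 to 5 without any one array. At 15 against 3 months (1) they were 3 in a fit of the 2 ages, 2 with weights, 2 without the 4 arrays, and 1 to 2 without any one array. At 24 against 15 months (3) they were 1 in a fit of the 2 ages and without the 4 arrays, and 1 to 3 without any one array; Runx1 was not called with the mean over probes or with the replicate block, and Gadd45a not with the median. At 29 against 24 months (0) they were 0 to 1 without any one array.

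Genes of the 4 lists called at 29 against 3 months (23) were 12 with the median and 17 to 24 without any one array. At 15 against 3 months (1) they were 0 with the median, 2 with quantile, normexp, deposited values, the mean over probes or trend and robust, 4 in a fit of the 2 ages, 6 with weights and 6 without the 4 arrays, and 1 to 3 without any one array. At 24 against 15 months (0) they were 1 with weights and 0 to 1 without any one array. At 29 against 24 months (2) they were 0 with quantile, no filter, the 2 ages, the replicate block, weights or without the 4 arrays, 1 with the median, the filter on all arrays or trend and robust, and 5 with deposited values, and 0 to 3 without any one array. Replicate numbers follow the array column: same-numbered samples deviated with correlations of -0.47 to 0.30 and 2 of 16 arrays lay closest to their own number, so the block has no basis in the design. A random block for slide could not be estimated because each age lay on 1 slide. Scanner files gave median and not mean spot signals, which normexp (offset 50) used. Runx1 is dim at 3 and 15 months, and its folds are limited by background there.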
